A study of Mus musculus with 4 samples.

Results

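The Hox genes described here are the 4 HoxA members Hoxa7, Hoxa9, Hoxa10 and Hoxa11 and the 5 HoxC members Hoxc6, Hoxc8, Hoxc9, Hoxc10 and Hoxc11. They were taken by gene symbol, are 9 of the 39 genes of the 4 mouse Hox clusters, and make up 9 of 31055 counted features. Their levels were followed across 4 droplet single-cell RNA-seq libraries (10x Genomics) of mouse muscle stem cells, and, within the tibialis anterior (TA) muscle of the hindlimb, across single cells by their UMIs of Myog and by detection of the members in the same cell. A UMI, or unique molecular identifier, stands for 1 captured RNA molecule.

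Cells were sorted on green fluorescence from Tg:Pax7-nGFP mice aged 2-4 months, in which a nuclear reporter marks cells that use the Pax7 gene. All 4 groups carry this transgene. The TA and the muscles around the eyeball (extraocular, EOM) each gave a quiescent library, taken straight after the sort, and an activated library, taken after 4 days in growth medium on Matrigel at 3% oxygen. The number of animals behind each library is not given in the sources used here. With 1 library per group no difference could be tested: intervals below are 95% exact intervals that cover counting error only, and no p-value is given.

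After filtering, 2908 to 5563 cells were kept per library, with median depths of 4662 and 5038 UMIs per cell in quiescent EOM and TA and of 21261 and 23383 in activated EOM and TA. Barcodes with over 10% mitochondrial UMIs, which were left out, made up 40.5% of the quiescent TA library and 11.7% to 24.7% of the others. All 12 muscle stem cell markers were above 5 CPM (UMIs of the gene divided by all UMIs of the kept cells and scaled to 1000000) in both quiescent libraries, and all 14 differentiating muscle markers were above 5 CPM in both activated ones. Among lists of other cell types, the 8 immune markers summed to 19.5 CPM in quiescent TA (2 at 0) and to at most 1.15 CPM in the other libraries. The 9 fibroblast markers summed to 1222 and 1369 CPM in quiescent EOM and TA and to 201 and 140.1 CPM in activated EOM and TA, with 3 to 5 of them at 5 CPM or more and at most 1 at 0. Gsn alone held 624 and 661 CPM of the fibroblast sums in quiescent EOM and TA. The 8 mural markers summed to 429 and 262 CPM in quiescent EOM and TA and to 2094 and 1196 CPM in activated EOM and TA. Of the activated mural sums, Acta2 alone held 2030 and 1175 CPM. The part of other cell types in the results was not tested. Any pair of libraries shared 3 to 7 barcodes among kept cells. No EOM cell that held a UMI of a member had a barcode also seen in the TA library of the same state.

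Hox genes encode homeodomain transcription factors that give cells a position along the body axis. In each cluster the genes lie in the order in which they are used from head to tail, and the posterior genes of the HoxA and HoxC clusters are known for patterning the limbs and the trunk. Limb muscle comes from somites of the trunk, whereas extraocular muscle comes from head mesoderm in front of the region where Hox genes are used, and limb muscle cells of the adult are known to keep a Hox code. Genes of the same number in different clusters are paralogs, copies of an ancestral gene.

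The HoxA members lie on the minus strand of chromosome 6 in GRCm38, from Hoxa7 (chr6:52214491-52221854) through Hoxa9 (chr6:52223100-52231089) and Hoxa10 (chr6:52231197-52240854) to Hoxa11 (chr6:52242106-52245810). The HoxC members lie on the plus strand of chromosome 15, from Hoxc11 (chr15:102954427-102957708) through Hoxc10 (chr15:102966796-102971893), Hoxc9 (chr15:102976439-102985099) and Hoxc8 (chr15:102990607-102994111) to Hoxc6 (chr15:102998257-103011881). Some exons are shared with neighbours, so that the counting could not always tell them apart. The antisense gene Hoxaas3 covers 586 exonic bases of Hoxa7, or 20.4% of them, and held 0.978 CPM in activated TA, where Hoxa7 held 39.1 CPM. The same-strand annotation of Hoxc5 covers 166 exonic bases of Hoxc10, or 8.70%, and Hoxc5 held at most 1.37 CPM in any library. Hoxa11os, on the opposite strand, covers 800 exonic bases of Hoxa11, or 35.0%, and is not among the counted features, so reads from it may count as Hoxa11 where the counting ignores strand.

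Both clusters also hold a gene for the microRNA miR-196, which is known to repress Hox mRNAs: Mir196b overlaps an exon of Hoxa9 by 85 bases and Mir196a-2 lies in the HoxC cluster. The mature sequences are shown because 3 of the 9 members carry matches to their seed, bases 2 to 8, given in capitals (RefSeq, GRCm38.p6). Both share 1 seed.
mmu-miR-196a-5p: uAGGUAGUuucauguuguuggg
mmu-miR-196b-5p: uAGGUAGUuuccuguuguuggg

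The bases that pair with this seed read ACTACCT on the mRNA strand, the only strand searched, in the longest annotated 3′ untranslated region of each member (GENCODE vM21, 818 to 1309 bases). Hoxa7 holds 4 such matches, Hoxc8 holds 2 and Hoxa9 holds 1, and the other 6 members hold none. Among 3762 coding genes whose longest 3′ region is 800 to 1400 bases, 4.31% hold at least 1 match and 0.159% hold at least 2. The matches, in capitals, are shown with the 15 bases before them, and the number is the position of the first capital after the stop codon.
Hoxa7, base 310: aggcacagccaaaatACTACCT
Hoxa7, base 347: gagaggcactcccaaACTACCT
Hoxa7, base 479: caaaccatgatcaatACTACCT
Hoxa7, base 500: tactactagccctaaACTACCT
Hoxa9, base 337: gcaaaaggaaagaaaACTACCT
Hoxc8, base 135: acactcacaactctaACTACCT
Hoxc8, base 892: ataaatctttaacatACTACCT

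The first comparison set TA, a limb muscle, beside EOM, a group of head muscles. All 9 were found in both TA libraries and 7 of the 9 had no UMI in any kept EOM cell of either state. The values are CPM of the summed UMIs of a library's kept cells, and where a library holds no UMI the fold is a lower bound against 3 counts per library (0.172 CPM in quiescent EOM and 0.0244 CPM in activated EOM).

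Hoxc10, a gene of the lumbar and hindlimb region, held 0 UMIs in quiescent EOM, 1232 UMIs (80.3 CPM) in quiescent TA, 0 in activated EOM and 5403 UMIs (52.8 CPM) in activated TA. It was thus at least 467-fold higher in TA in the quiescent state and at least 2161-fold higher in the activated state. Hoxc9, its neighbour in the cluster, held 0 UMIs in quiescent EOM, 457 UMIs (29.8 CPM) in quiescent TA, 15 UMIs (0.122 CPM) in activated EOM and 2758 UMIs (27.0 CPM) in activated TA.

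Hoxc9 was the member most seen in EOM: its 15 UMIs lay in 14 activated cells, whose median depth was 21046 UMIs, close to that of the library. Its level in activated TA was 221-fold that in activated EOM (134 to 395). Hoxc6 held 0 UMIs in quiescent EOM, 144 UMIs (9.38 CPM) in quiescent TA, 2 UMIs in activated EOM and 953 UMIs (9.32 CPM) in activated TA, a ratio of 572 in the activated state (158 to 4728). The 2 Hoxc6 UMIs lay in 2 cells.

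Hoxa7 held no UMI in kept EOM cells, 110 UMIs (7.17 CPM) in quiescent TA and 4003 UMIs (39.1 CPM) in activated TA. Hoxa9, which has its paralog in Hoxc9, had none in EOM, 126 UMIs (8.21 CPM) in quiescent TA and 3327 UMIs (32.5 CPM) in activated TA. For Hoxa10 the TA libraries held 237 UMIs (15.4 CPM) and 3304 UMIs (32.3 CPM), again against none in EOM. Hoxa11, a gene known for patterning the middle segment of the limb, had the fewest quiescent UMIs: 57 (3.71 CPM) in quiescent TA and 1146 (11.2 CPM) in activated TA, with none in EOM.

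Hoxc8 held 159 UMIs (10.4 CPM) in quiescent TA and 1001 UMIs (9.79 CPM) in activated TA, and Hoxc11, the paralog of Hoxa11, held 113 UMIs (7.36 CPM) and 1989 UMIs (19.4 CPM), both with none in EOM. Over all members the lower bounds of the TA to EOM ratio ran from at least 21.6-fold (Hoxa11) to at least 467-fold (Hoxc10) in the quiescent state. Without any filter on barcodes, the EOM libraries gained 1 UMI of Hoxc6 in the quiescent state and 1 of Hoxa7 and 2 of Hoxc9 in the activated state.

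All 9 members were at least 2-fold higher in TA in both states, where 3.83% of 12082 genes with at least 1 CPM in either quiescent library and 2.12% of 11388 genes in the activated ones were. None was at least 2-fold lower, where 7.69% and 4.55% of the same genes were. Of the 7283 genes with at least 5 CPM in both TA libraries, 6 had no UMI in either EOM library, and these 6 were all members: Hoxa7, Hoxa9, Hoxa10, Hoxc8, Hoxc10 and Hoxc11. All members had been chosen with earlier results of these data known. The counts set beside the shares of all genes therefore describe that choice and give no separate support.

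**Figure D1:**
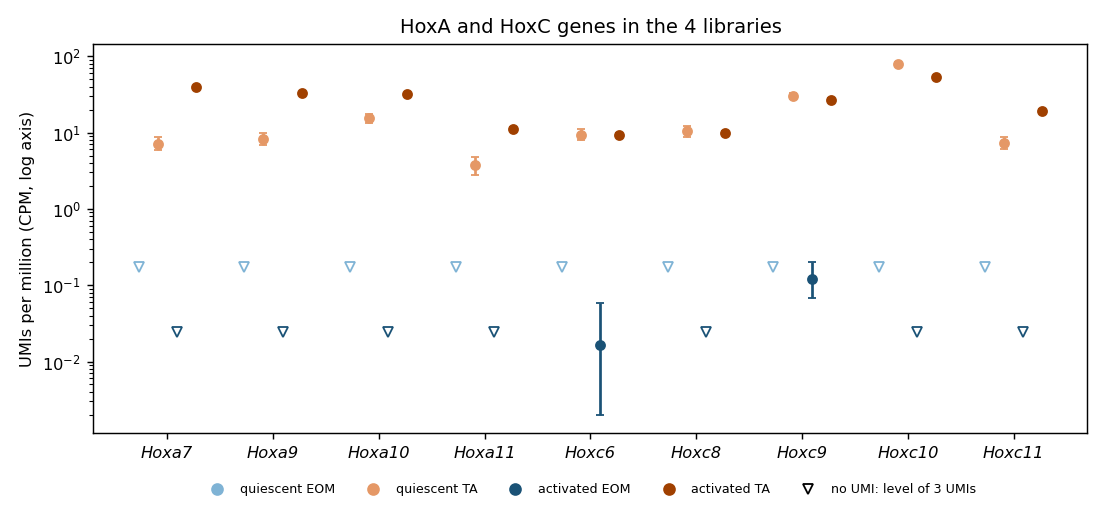
CPM of each member (log axis) in the 4 libraries, with 95% Poisson intervals; open triangles mark the level of 3 UMIs where a library holds none. The TA libraries sit between 3.71 and 80.3 CPM, and the highest EOM value is 0.122 CPM, for Hoxc9 in activated cells.

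The rest of the Hox clusters stayed below 5 CPM. The other 7 HoxA genes held at most 4.20 CPM in any library and the other 4 HoxC genes at most 3.71 CPM. The 10 HoxB genes held at most 0.743 CPM and the 9 HoxD genes at most 0.130 CPM. Other HoxA genes reached 4.10 CPM in quiescent TA, above the member Hoxa11 at 3.71 CPM, but at most 0.114 CPM in either EOM library. The most abundant of them was thus also higher in TA. Hoxc4, at the anterior end of the HoxC cluster, was also higher in TA, at 2.74 CPM in quiescent TA against 0.172 CPM in quiescent EOM and 3.71 CPM in activated TA against 0.513 CPM in activated EOM. It had 63 UMIs in activated EOM, more than any member, and is named after its values were seen.

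Of the non-coding genes in the 2 clusters, only Hotairm1, transcribed from the anterior end of HoxA, reached 5 CPM. It held 0 UMIs in quiescent EOM, 1.498 CPM in quiescent TA, 1.53 CPM in activated EOM and 9.95 CPM in activated TA. Activated EOM held 188 Hotairm1 UMIs in 180 cells, while the 4 HoxA members held none.

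The 8 non-member genes with the most similar pattern, ranked by the smaller of the 2 TA to EOM ratios, were Lbx1, Tbx1, Asb4, Pmaip1, Vgll2, Thbs1, Skap2 and Col19a1. Lbx1, a regulator of migrating limb muscle precursors, held 29.3 and 27.2 CPM in quiescent and activated TA against 0.0573 and 0.0407 CPM in EOM. Its quiescent EOM value is 1 UMI, below the 3 counts used for the members' bounds, so no order between Lbx1 and the members was read. Tbx1, a T-box factor, was 47.0-fold and 55.4-fold higher in TA in the 2 states. From Asb4 (12.7-fold and 20.6-fold) to Col19a1 (10.7-fold and 3.09-fold), the TA to EOM ratios of the others were far below those of the members in the activated state. Skap2, which lies on chromosome 6 like the HoxA cluster, held 7.30 CPM in quiescent TA against 1.49 CPM in EOM, and 15.8 against 4.59 CPM after activation.

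Hox proteins bind DNA together with cofactors of the Pbx and Meis families. Of the 7 cofactors with at least 5 CPM in a quiescent library, 1 was at least 2-fold higher in TA and 1 lower, and of 5 in the activated state none was higher and 1 lower. Over all genes at that level, 2.65% were higher and 4.84% lower in quiescent TA, and 1.37% higher and 2.97% lower in activated TA. Meis1 held 8.21 CPM in quiescent TA against 1.66 CPM in EOM, a ratio of 4.94 (3.28 to 7.68). Median log2 ratios of the cofactors were -0.19 and -0.01 in the 2 states, beside -0.11 and 0.0063 over all genes at that level.

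Polycomb and Trithorax proteins keep Hox genes silent or active. None of the 23 listed genes with at least 5 CPM in a quiescent library, nor of the 21 in an activated one, differed by 2-fold between TA and EOM. The widest ratio in the quiescent state was that of Cbx7, a Polycomb subunit, at 0.523. Among the listed limb regulators, 5 of 8 were higher and 2 lower in quiescent TA, and 2 of 8 were higher and 2 lower in activated TA. Pax3, a regulator of limb muscle precursors, held 13.3 CPM in quiescent TA against 0.115 CPM in EOM. Pitx1, a regulator of hindlimb identity, held 1 UMI in each TA library, against 14 in quiescent EOM and 641 (5.22 CPM) in activated EOM. Of the upstream list, the retinoic acid receptor genes Rara (ratio 0.460) and Rarb (0.310) were lower in quiescent TA, which makes 2 of 4 measured genes, and none of 3 differed by 2-fold in the activated state.

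The next comparison set activated beside quiescent TA cells. The HoxA members were all higher after 4 days in culture, summing to 34.5 CPM (31.7 to 37.6) in quiescent and 115 CPM (113 to 117) in activated TA, a ratio of 3.34 (3.06 to 3.65). HoxC members summed to 137 CPM (131 to 143) and 118 CPM (116 to 120), a ratio of 0.863 (0.824 to 0.904). The sum over the 9 genes was 172 and 233 CPM.

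Hoxa7 showed the widest ratio of activated to quiescent TA, 5.46 (4.52 to 6.66). Hoxa9 followed at 3.96 (3.32 to 4.77), Hoxa11 at 3.02 (2.31 to 4.01) and Hoxa10 at 2.09 (1.83 to 2.40). Among HoxC members Hoxc11, the most posterior of the 5, was alone above 2, at 2.64 (2.18 to 3.22).

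Hoxc10 was lower in activated cells, at 0.658 of its quiescent level (0.618 to 0.701). The intervals of Hoxc9 (0.906, 0.820 to 1.002), Hoxc8 (0.945, 0.798 to 1.12) and Hoxc6 (0.993, 0.833 to 1.19) included 1. In activated TA 5 of 9 members were 2-fold higher or more and 0 were 2-fold lower, where 28.3% of 12399 genes were higher and 27.9% lower. A count of 5 of 9 is a larger share than that background, though many genes differed in both directions. The count was added after the data had been seen, and Hoxa10 lay near the 2-fold threshold.

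The ratio of UMIs of a HoxC gene to those of its HoxA paralog therefore shifted between the states. For Hoxc9 to Hoxa9 it was 3.63 (2.97 to 4.45) in quiescent and 0.829 (0.788 to 0.872) in activated TA. For Hoxc10 to Hoxa10 it was 5.20 (4.52 to 5.999) and 1.64 (1.57 to 1.71). Only the third pair, Hoxc11 to Hoxa11, had overlapping intervals, at 1.98 (1.43 to 2.78) and 1.74 (1.61 to 1.87). These ratios use UMIs with no division by gene length, so it is their shift between states, in which length cancels, that can be read.

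**Figure D2:**
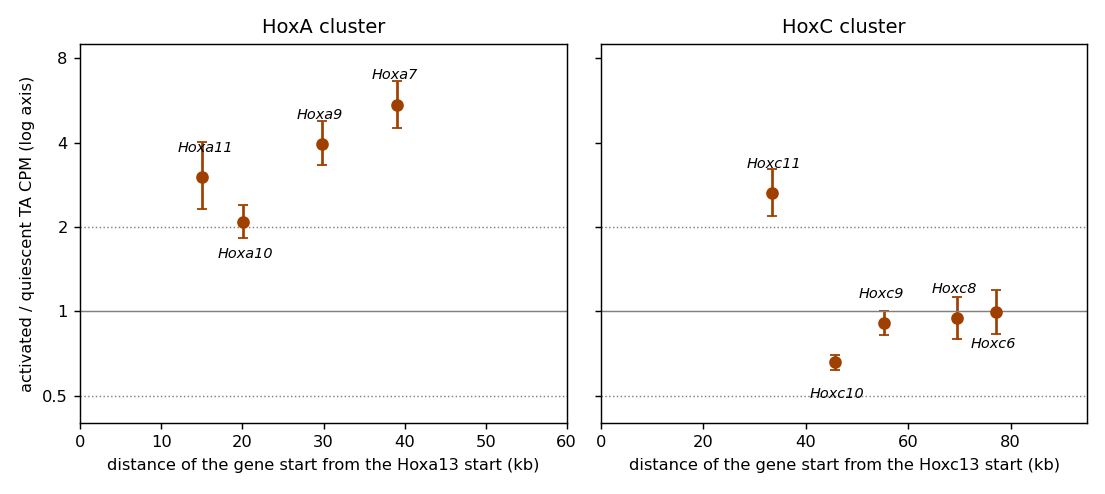
Ratio of activated to quiescent TA CPM (log axis) with 95% intervals for each member, against the distance of its start from that of the gene at the posterior end of its cluster, Hoxa13 or Hoxc13 (kb); dotted lines mark 2-fold. The 4 HoxA members lie between 2.09 and 5.46, and of the HoxC members Hoxc11 lies at 2.64 and the other 4 at or below 0.993.

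The direction of 3 HoxC members depended on scaling. With TMM factors the median of all genes moved up by 0.28 on the log2 scale in activated TA, and with median-of-ratios factors by 0.17. Hoxc9 (1.101 and 1.02), Hoxc8 (1.15 and 1.06) and Hoxc6 (1.21 and 1.11) then lay above 1, while Hoxc10 lay at 0.7997 and 0.739. Relative to that shift the ratios are those given above. HoxA members and Hoxc11 stayed above 2 under both other scalings. The strictest filter, at most 5% mitochondrial UMIs, left 46 quiescent TA cells, and there the ratios were 2.45 for Hoxa7, 3.42 for Hoxa10, 1.20 for Hoxa11, 1.03 for Hoxc11 and 1.09 for Hoxc10, so that 3 rather than 5 members were 2-fold higher and Hoxc10 was not lower. Hoxa10 lay just under 2 with at most 20% mitochondrial UMIs (1.99), over all barcodes (1.996) and as a mean of CPM per cell (1.95).

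Other genes of the clusters appeared in activated TA. Hoxa4 held 1 UMI in quiescent and 291 UMIs (2.84 CPM) in activated TA, and Hoxc13 held 0 and 254 UMIs (2.48 CPM). Hotair, a non-coding RNA of the HoxC cluster, was at 3.13 CPM in quiescent and 1.42 CPM in activated TA. These genes were chosen after their values were seen.

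Myog encodes myogenin, the factor that commits muscle cells to differentiate. Quiescent TA held Myog in 7 of 2908 cells, so the members were followed by Myog in activated TA alone. Its cells were thinned to 10000 UMIs and sorted into those with 0 (794 cells), 1 to 4 (1021), 5 to 19 (775) and 20 or more (1431) Myog UMIs, and 260 shallower cells were left out. These are ranges of a count, not cell types.

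All members but Hoxa7 were lower in the Myog-high cells, and 1 of the 9, Hoxc8, was lower by at least 2-fold, where 10.7% of 11396 genes were at least 2-fold lower and 8.99% higher. A share of 1 in 9 is near that background. The members' median log2 ratio was -0.78, beside -0.13 over all genes tested.

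Hoxc8 held 13.5 CPM in Myog-free cells, then 13.1 and 10.4 CPM, and 4.49 CPM in the highest range, a ratio of 0.331 (0.270 to 0.406). Hoxa9 went from 39.4 CPM through 40.03 and 35.4 to 20.2 CPM, a ratio of 0.512 (0.462 to 0.568). Hoxc10 held 60.1, 62.8 and 63.6 CPM in the 3 lower ranges and 33.8 CPM in the highest, a ratio of 0.563 (0.519 to 0.610). In each of the 3 the drop lay mostly in the step to 20 or more Myog UMIs.

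Hoxa7 held 38.6, 40.1, 39.1 and 38.6 CPM, a ratio of 1.001 (0.916 to 1.09). Ratios of Hoxc11 (0.574) and Hoxa11 (0.582), a pair of paralogs, were close to each other. For Hoxc9 (0.732), Hoxa10 (0.814) and Hoxc6 (0.815, 0.675 to 0.986) they were closer to 1. Summed HoxA members were at 0.753 (0.715 to 0.793) and summed HoxC members at 0.596 (0.565 to 0.628) of their level in Myog-free cells.

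**Figure D3:**
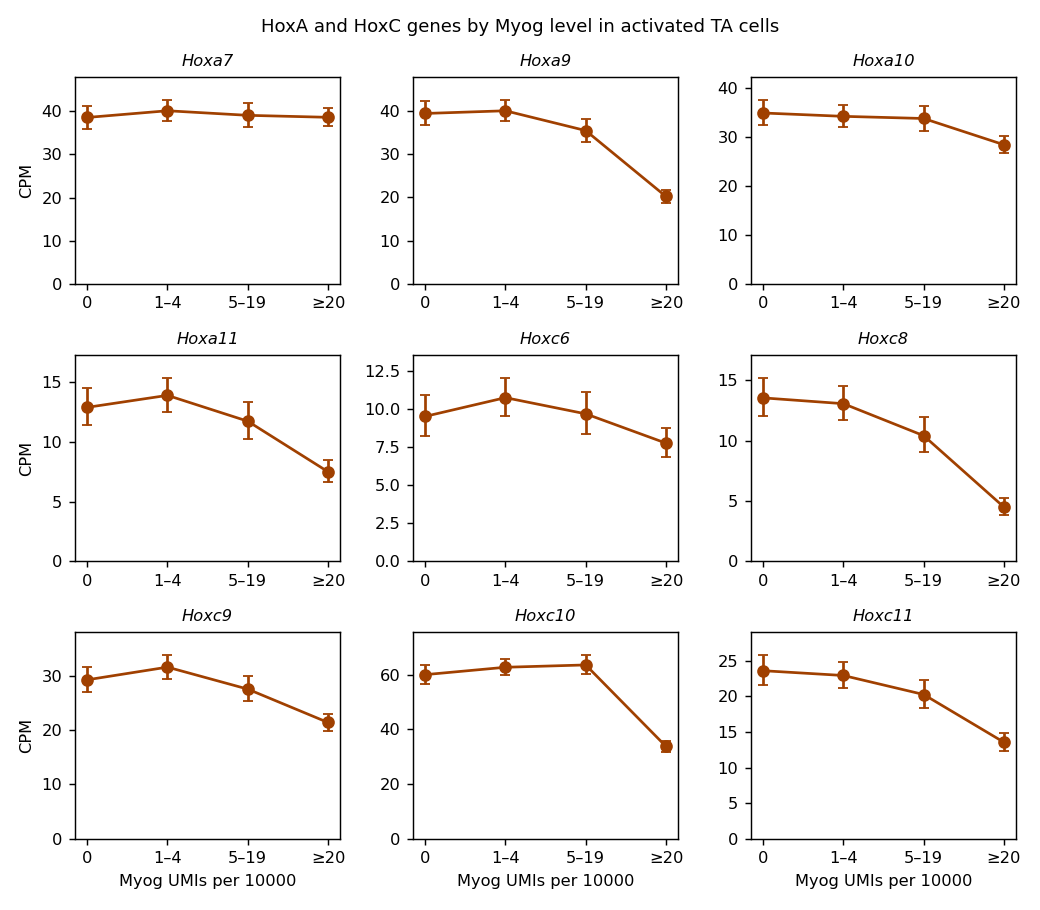
CPM of each member, with 95% Poisson intervals, in activated TA cells grouped by Myog UMIs per 10000 UMIs. Hoxa7 is level at 38.6 to 40.1 CPM, while Hoxc8 goes from 13.5 to 4.49 CPM and Hoxc10 from 60.1 to 33.8 CPM.

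Cell cycle genes moved with Myog: cells with a UMI of Mki67 or Top2a, both used by dividing cells, were 94.3% of Myog-free and 53.2% of Myog-high cells, and median depths were 25062 and 22402 UMIs. Their part in the differences was not tested. In cells with neither gene, 669 Myog-high and 45 Myog-free, 6 of 9 members were at least 2-fold lower in Myog-high cells, and Hoxa7 stood at 1.26. Of 12310 genes in the same cells, 23.9% were 2-fold lower and 9.89% higher, also a larger share lower than over all cells. Within Myog-free cells the summed members were 262.8 CPM in the 749 cells with a UMI of either gene and 241 CPM in the 45 other cells, a ratio of 1.09 (0.957 to 1.25), while Hoxc10 alone was at 1.73 (1.24 to 2.49). Over all activated TA cells, of any Myog level, the same ratio of the summed members was 1.62 (1.56 to 1.69).

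The HoxA part of the difference from quiescent TA was also present in Myog-free activated cells, whose summed HoxA members were at 3.64 (3.32 to 4.01) of the quiescent level. Summed HoxC members were at 0.992 (0.937 to 1.05) there, without the lower level seen over all activated cells. That sum combined unlike ratios: Hoxc10 was still lower at 0.748 (0.691 to 0.810), and Hoxc11 was at 3.21 (2.61 to 3.97). Hoxc8 was at 1.31 (1.07 to 1.598), while the intervals of Hoxc9 (0.982, 0.868 to 1.11) and Hoxc6 (1.02, 0.816 to 1.27) included 1. Hoxa7 was at 5.38 (4.41 to 6.63) and Hoxa9 at 4.80 (3.98 to 5.84), and again 5 of 9 members were at least 2-fold higher, where 28.2% of 12324 genes were.

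Within quiescent TA the members also varied among cells. A split by Pax7, the stem cell factor whose reporter was used for sorting, was chosen after the data had been seen, and cells were thinned to 2000 UMIs to set it. Summed members were at 138 CPM (130 to 146) in the 1480 cells with no Pax7 UMI, 179 CPM in the 773 cells with 1, 239.7 CPM in the 368 cells with 2 and 274 CPM (244 to 306) in the 230 cells with 3 or more. The ratio of the last to the first was 1.98 (1.74 to 2.25).

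Hoxc11 (2.79, 1.58 to 4.75), Hoxc6 (2.75, 1.66 to 4.41), Hoxc9 (2.38, 1.77 to 3.16) and Hoxa10 (2.24, 1.42 to 3.42) were at least 2-fold higher in the Pax7-rich cells. Those are 4 of the 8 members with at least 5 CPM in either range, where 8.52% of 9247 genes were, and none was 2-fold lower, where 5.56% were. Hoxc10 was at 1.88 (1.54 to 2.27) and Hoxc8 at 0.858 (0.378 to 1.72). The early response gene Fos was 5.52-fold higher in the same cells and Myod1 was at 0.506, and their part was not tested.

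**Figure D4:**
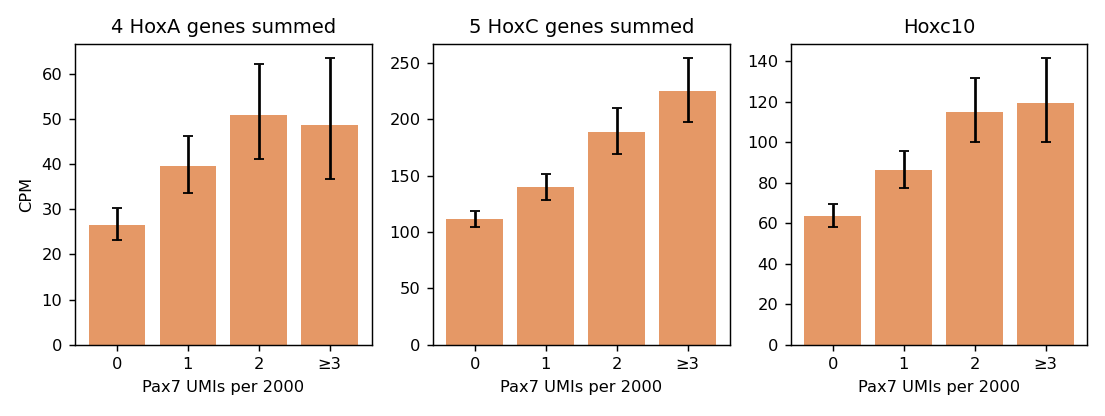
CPM, with 95% Poisson intervals, of the summed HoxA members, the summed HoxC members and Hoxc10 in quiescent TA cells by Pax7 UMIs per 2000 UMIs. HoxC members go from 112 CPM with no Pax7 UMI to 225 CPM with 3 or more, and Hoxc10 from 63.6 to 120 CPM.

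The members also differed between clusters of quiescent TA cells. Their summed level ran from 95.2 CPM (83.7 to 108) in a cluster of 440 cells led by Cxcl3 and Cxcl5 to 460 CPM (420 to 503) in a cluster of 237 cells led by Fos, Hes1 and Nr4a1. In that cluster Hoxc10 was at 191 CPM and Hoxa10 at 62.2 CPM, against 48.0 and 7.42 CPM in the former. Since the clustering used the expression of these cells, these values are a description only.

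Per cell the members were sparse. At 2000 UMIs Hoxc10 was found in 404 of 2851 quiescent TA cells, 14.2% (12.9 to 15.5), and in 10.2% of activated ones, and without thinning the shares were 27.3% and 62.6%. The other members were found in 0.807% (Hoxa11) to 5.89% (Hoxc9) of quiescent cells at that depth. In activated TA at 10000 UMIs shares ran from 8.11% (Hoxc6) to 39.1% (Hoxc10), with Hoxa7 at 31.8%.

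If UMIs fell on cells at random, Hoxc10 would be in 16.0% of quiescent cells at 2000 UMIs, and its variance over cells was 1.42 times its mean. For the other members in quiescent TA that ratio lay between 1.06 and 1.18. One quiescent cell held 7 Hoxc10 UMIs among its 2000.

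Free RNA can place UMIs in cells that do not use a gene. In the 16 endothelial-like cells removed from quiescent TA, whose median depth was 5195 UMIs, 2 of the 13 cells with 2000 UMIs held a member, 15.4% (1.92 to 45.4), against 28.2% of muscle cells. That interval includes the muscle share, but the summed level did not overlap: 58.0 CPM (21.3 to 126) in the 16 cells against 172 CPM (165 to 178) in muscle cells. The 2 members seen, each with 3 UMIs, had intervals that overlapped those of the muscle cells, so no direction was read for either. Hoxa7 was at 29.0 CPM (5.98 to 84.7) against 7.17 CPM in muscle cells, and Hoxc10 at 29.0 CPM (5.98 to 84.7) against 80.3 CPM. Whether the endothelial-like cells use Hox genes themselves was not tested.

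The last question was whether cells with 1 member tend to hold another. The observed number of cells with both genes was set against the number expected if the 2 were independent within 10 strata of cell depth and, in activated cells, within Myog ranges. Only pairs with at least 5 expected cells were read.

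In quiescent TA 8 of the 36 pairs qualified, none of them within HoxA, and all but Hoxa10 with Hoxc9 included Hoxc10. Their median observed to expected ratio was 1.22 (lowest 0.670, highest 2.46) and so describes mostly pairs with Hoxc10. For members paired with any other gene the median was 0.988, and the middle 90% lay between 0.543 and 1.49. Hoxa7 and Hoxc10 met in 14 cells where 5.70 were expected, a ratio of 2.46 (1.34 to 4.12). Hoxc8 and Hoxc10 met in 20 cells where 9.67 were expected, a ratio of 2.07 (1.26 to 3.196). The intervals of the other 6 pairs included 1, among them the paralogs Hoxa10 and Hoxc10 with 12 cells where 13.7 were expected.

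In activated TA all 36 pairs qualified and the median ratio was 1.07 (lowest 0.932, highest 1.29), beside 1.001 for members with any other gene, whose middle 90% ran from 0.777 to 1.23. Hoxc8 and Hoxc11 met in 87 cells where 67.6 were expected, 1.29 (1.03 to 1.59), and Hoxa9 and Hoxc8 in 129 where 108 were expected, 1.20 (1.0004 to 1.42). Pairs within HoxA had a median of 1.03, pairs within HoxC 1.08 and pairs across the clusters 1.07. The intervals of 34 pairs included 1. The middle 90% given above is a spread of single pairs, not of medians over 36 pairs. It therefore cannot show whether the median over the 36 pairs, which lay above 1, is unusual. The cause of this weak excess in sparse counts was not tested.

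**Figure D5:**
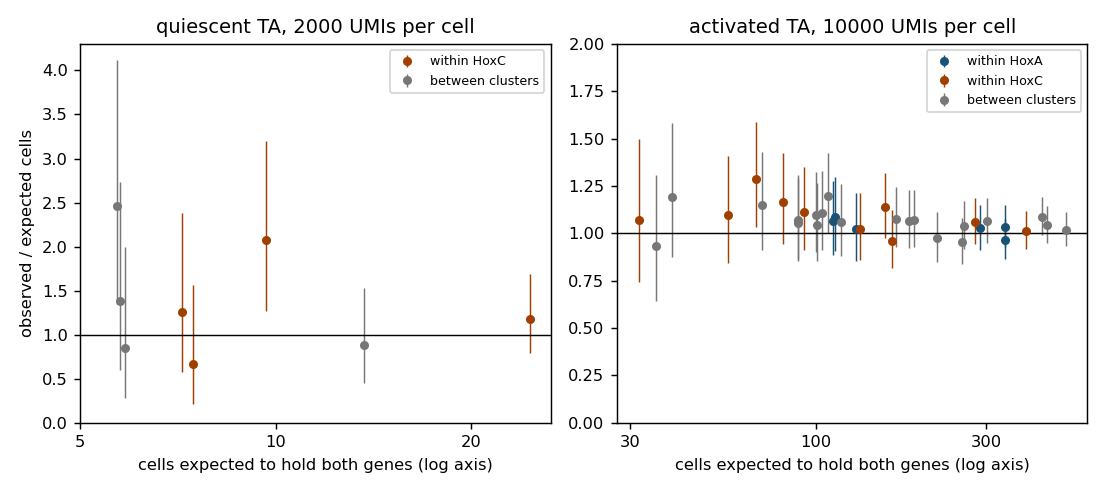
Observed to expected number of cells holding both genes of a pair, with 95% intervals, against the expected number (log axis), for quiescent TA at 2000 UMIs and activated TA at 10000 UMIs per cell. Quiescent pairs scatter from 0.670 to 2.46 and activated pairs from 0.932 to 1.29.

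Counts of members per cell were also set beside independence. At 2000 UMIs 28.2% of quiescent TA cells held at least 1 member and 4.24% at least 2, where independence gives 28.9% and 3.67%. At 10000 UMIs 86.3% of activated TA cells held at least 1 member, where independence gives 88.2%, and 31.1% held at least 3, where it gives 29.7%. At least 6 members were held by 0.821% of these cells (30 cells with 6 and 3 with 7), where independence gives 0.420%. No cell in either set held all 9.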

How the data were processed

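The deposited matrices hold UMI counts per gene and barcode, which the authors made with Cell Ranger 3.0.2 and the mm10 build, as the submitters' processing notes list them. The annotation behind them is not given in the sources used here. Of 31055 features, 31011 matched GENCODE vM21, which gave positions. The 2 rows named Hoxd4 were summed. Kept barcodes had 500 or more detected genes and no more than 10% mitochondrial UMIs. The automatic doublet threshold of Scrublet (scanpy 1.11.5) marked at most 2 barcodes per library and was not used; the highest-scoring barcodes were removed at 0.8% per 1000 barcodes. Leiden clusters named as another cell type were removed (16 endothelial-like cells of quiescent TA); a cluster with Pax7 and Myf5 at 0.5 or more of the other cells' level was kept, a rule set after a first clustering. This kept cells of a quiescent TA cluster led by Lyz2 and C1qb. With 1 library per group and no test, levels are CPM of summed UMIs with Poisson intervals, ratios carry exact conditional binomial intervals, and shares carry Clopper-Pearson intervals. Calculations were tested on simulated data. The TMM factors came from edgeR 4.0.16.

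Named genes were the 9 members, any other Hox gene or non-coding gene of the HoxA and HoxC clusters with at least 5 CPM, up to 4 of each regulator list with the widest TA to EOM ratio, and the 8 genes of most similar pattern. The members and lists were chosen with earlier results of these data known. Some genes that this rule names are not reported here.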

Additional observations from a re-analysis of the deposited data

Results flagged for a closer look

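The 9 members summed to 58.0 CPM (21.3 to 126) in the 16 endothelial-like cells of quiescent TA. These cells were left out of the main comparisons and were set beside muscle cells only to look at free RNA. The sum is given here because its 6 UMIs, 3 of Hoxa7 and 3 of Hoxc10, exceed the limit that a count of 0 allows. The muscle cells of that library held 172 CPM (165 to 178), so the intervals of the sum do not overlap, though those of Hoxa7 and of Hoxc10 alone do. The same 16 cells held 38.7 CPM of Pax7, 96.6 CPM of Myf5 and 976 CPM of Myod1, the muscle genes of the sorted population, where the muscle cells held 386, 347 and 1190 CPM.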

How the results depend on the processing

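All 9 members were 2-fold higher in TA in both states under the alternatives tried, except that 8 could be counted in the quiescent state where 5 CPM was required, and no member was 2-fold lower in activated TA under any. The 5 members that were higher in activated TA by 2-fold or more, a count added after seeing the data, became 3 with at most 5% mitochondrial UMIs (46 quiescent TA cells) and 1 at a fold of 4, and was 4 with at most 20% mitochondrial UMIs, over all barcodes and as a mean over cells, where Hoxa10 lay under 2. The count of 1 at least 2-fold lower in Myog-high cells became 6 without cells holding Mki67 or Top2a, where the share of all genes went from 10.7% to 23.9%. Median co-detection in activated TA, 1.07, was 1.102 with strata by depth only, 1.105 with no strata and 1.03 without doublet removal; the cause was not tested. In quiescent TA, where it was 1.22, it ran from 1.07 at 4000 UMIs to 1.42 with at most 20% mitochondrial UMIs. Of single members' activation ratios, 55 of 72 alternatives stayed within the counting interval of the main value, as did 47 of 63 for the Myog ratios. No paired analysis was possible because each group has 1 library, so the single replicate number gives no second pair. Depth limits the quiescent values most: 3 UMIs there stand for 0.172 to 0.195 CPM, against 0.0244 to 0.0293 CPM in activated libraries.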
